A study of Mus musculus with 10 samples.

Results

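The 10 genes described here encode the main heat shock chaperones of a mouse cell: Hspa8, Hsp90ab1, Hsp90aa1, Hspd1, Hspe1, Hspa5, Hspa9, Hspa4, Hsph1 and Hsp90b1. They were chosen by name, and their reads are the alignments to messenger RNA with a passing quality tag for tail length. All 10 were detected, among 13272 genes with kept reads, and together they held 24470 of 2041970 kept reads. A read aligned to several transcripts of a gene was counted once.

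The cells were P19, a mouse embryonal carcinoma line that grows as undifferentiated, pluripotent cells, of wild-type genotype. Knockdown cells (siLarp1) received a single siRNA against Larp1, so an effect of that siRNA on other targets cannot be told apart from loss of Larp1, and control cells (siCtl) received a pool of scrambled siRNAs. RNA was taken 24 h after transfection (3 siCtl and 3 siLarp1 libraries, numbered 19, 21 and 22 in each) or at 48 h, after a further transfection at 24 h (2 siCtl and 2 siLarp1 libraries, numbered 24 and 25). All libraries were poly(A)-selected RNA read directly as RNA on nanopores, which gives the length of the poly(A) tail of each molecule. At 24 h the siCtl and siLarp1 libraries were sequenced in separate pools, so a treatment effect and a pool effect cannot be told apart at that time. The 4 libraries of 48 h shared a pool.

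Chaperones bind unfolded or partly folded proteins and release them in cycles driven by ATP. The HSP70 proteins hold short hydrophobic stretches, helped by co-chaperones that load them and by HSP110 proteins that exchange their nucleotide. The HSP90 proteins act later, on nearly folded clients such as kinases and steroid receptors, and the mitochondrial chaperonin encloses proteins in a chamber. Many of these genes are induced by heat through the factor HSF1, while those of the endoplasmic reticulum answer to the unfolded protein response. Embryonal carcinoma and embryonic stem cells keep high levels of several of them without stress. LARP1 is an RNA-binding protein known for its hold on mRNAs with a terminal oligopyrimidine start, most of which encode ribosomal proteins, and the study asked how its loss alters poly(A) tails.

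The ends of the reads show where each chaperone mRNA was cut and polyadenylated. A site was taken as the most common last aligned base with the read ends within 25 nt of it, where at least 5% of a gene's reads ended, with exons from GENCODE on GRCm38 (mm10). This gave 15 sites, 1 in each of 5 genes and 2 in each of 5 genes. The 30 bases up to and including the site are shown for the most read gene of each HSP family and for 3 genes with 2 sites, to show what differs between the sites. Capitals mark the polyadenylation signal AATAAA or its variant ATTAAA, on the transcript's strand, written as DNA.
Hspa8, chr9:40805171-40805200, plus strand: ggaatAATAAAactatttaaattggcacca
Hsp90ab1, chr17:45567778-45567807, minus strand: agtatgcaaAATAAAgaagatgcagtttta
Hspe1 nearer site, chr1:55091208-55091237, plus strand: tttatAATAAAcagatgatgcctaaactga
Hspe1 farther site, chr1:55091278-55091307, plus strand: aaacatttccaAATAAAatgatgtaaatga
Hspd1 nearer site, chr1:55078048-55078077, minus strand: ttttgAATAAAgacatttgtacattcctga
Hspd1 farther site, chr1:55077835-55077864, minus strand: cctttgtgtAATAAAattttgtttaaagtt
Hspa4 nearer site, chr11:53261574-53261603, minus strand: cttgtttatATTAAAacagactattataaa
Hspa4 farther site, chr11:53259814-53259843, minus strand: actAATAAAagaaacctgtcttaacttgaa

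All these windows lie in 3′ untranslated exons. Of 13 windows read in 9 of the genes, 9 held AATAAA, 1 held ATTAAA and 3 held neither, against 66.5% of 5378 windows of tested genes with AATAAA and 17.6% with ATTAAA, each window ending at the most common read end of the gene's leading transcript. The windows with neither were those of Hsp90aa1 and Hsph1 and the farther site of Hspa5. The last aligned base can lie a few bases from the true cleavage point, because alignment stops short or runs on into adenines.

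Hspd1 and Hspe1, which encode the mitochondrial chaperonin HSP60 and its lid HSP10, stand head to head on chromosome 1 and are transcribed away from each other. GENCODE starts Hspd1 at position 55088024 on the minus strand and Hspe1 at position 55088132 on the plus strand. RefSeq's promoter window of Hspe1 on GRCm38.p6 is shown because this stretch serves both genes. It runs from 250 bases before to 50 after the start RefSeq gives, with letters of the heat shock element in capitals.
Hspe1, chr1:55087898-55088197, plus strand: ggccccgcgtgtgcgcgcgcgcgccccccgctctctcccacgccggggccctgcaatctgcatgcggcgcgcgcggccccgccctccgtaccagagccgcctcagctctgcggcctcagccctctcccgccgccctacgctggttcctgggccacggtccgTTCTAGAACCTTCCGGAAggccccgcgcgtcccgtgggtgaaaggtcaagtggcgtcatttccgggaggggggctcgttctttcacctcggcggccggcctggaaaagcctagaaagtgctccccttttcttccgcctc

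The capitals cover matches of TTCNNGAA and GAANNTTC, which overlap each other here and read the same on both strands. Of 32851 promoter windows of this length, 8.52% held TTCNNGAA and 7.86% held GAANNTTC, and 0.603% held 3 or more of the units TTC and GAA in alternation with 2 bases between them. The RefSeq table gave 8 windows for 6 of the chaperone genes, and 4 of the 8 held such a run. These were that of Hspe1, both of Hsph1, which overlap each other, and the Hspd1 window at chr1:55087883-55088182. That Hspd1 window covers most of the window of Hspe1. The other Hspd1 window, which shares only a few bases with that of Hspe1, held none. A match of letters is a description of the window and not a measured binding site.

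The libraries held between 112713 and 423365 kept reads. The knockdown was seen in every library, since Larp1 was read at 75.9, 84.2 and 85.0 reads per 1000000 kept reads (RPM) in siCtl and at 33.4, 44.9 and 19.1 in siLarp1 at 24 h. At 48 h it was at 169 and 123 RPM in siCtl and at 18.5 and 24.9 in siLarp1. The siLarp1 values rest on few reads of Larp1, 4, 6 and 3 at 24 h and 3 and 3 at 48 h, against 19 to 36 a library in siCtl. Pluripotency markers fitted the label as a sum, from 3756 to 5029 RPM with a median of 4445 RPM over the 10 libraries. Most of it was Pou5f1, with a median of 2617 RPM. All 10 of 10 such markers were detected, but some by few reads. Dppa5a had 8 reads in all, and Dppa4 had a median of 32.0 RPM, below the 41.7 RPM of the neural marker Tubb3. Markers of other cells were few: the neural markers Map2, Tubb3, Pax6, Elavl3 and Dcx summed to between 26.6 and 95.9 RPM, most of it Tubb3, with Neurod1 at 0; the 5 mesenchymal markers, 4 detected, summed to between 0 and 43.6 RPM, with Col3a1 at 0. The 4 endoderm markers, 2 detected, reached at most 6.37 RPM, with Sox17 and Afp at 0. The 6 interferon response genes, 2 detected, reached at most 8.34 RPM, with Isg15, Ifit1, Ifit3 and Irf7 at 0. The library siLarp1 number 24 stood at the top for the chaperone genes and for short tails, with 1.34% of its reads from the 10 chaperone genes against 1.14% to 1.22% in the other 9, and 4.20% of all its tails under 30 nt against 2.15% to 3.37%.

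The cytosolic chaperones led in abundance. Each nanopore read is 1 molecule read from its tail, so RPM compares molecules between genes and is not divided by length. Over the 10 libraries Hspa8, the constitutive HSP70, averaged 3569 RPM, higher than 99.1% of the 5431 genes tested, and Hsp90ab1, the constitutive HSP90, averaged 3055 RPM. Hsp90aa1, the more inducible HSP90, followed with 1496 RPM, and Hspe1 with 1490 RPM. Hspd1 had 762 RPM. Hspa4, an HSP110 exchange factor, had 407 RPM, and Hspa5, the HSP70 of the endoplasmic reticulum known as BiP, had 402 RPM. Hspa9, the mitochondrial HSP70, had 383 RPM, and Hsp90b1, the HSP90 of the endoplasmic reticulum, had 320 RPM. Hsph1, a heat-inducible HSP110, was lowest with 102 RPM, against a median of 47.3 RPM over all tested genes.

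Some neighbours in this order changed places between libraries. Hspa8 was above Hsp90ab1 in 9 of 10 libraries, but Hsp90aa1 was above Hspe1 in 4 of 10, Hspa4 above Hspa5 in 5 of 10 and Hspa5 above Hspa9 in 5 of 10. The other steps (Hsp90ab1 over Hsp90aa1, Hspe1 over Hspd1, Hspd1 over Hspa4, Hspa9 over Hsp90b1 and Hsp90b1 over Hsph1) held in 10 of 10 libraries. Hsp90ab1 was read 1.78 to 2.27 times as often as Hsp90aa1 in each library. Hspe1 was read 1.41 to 2.53 times as often as Hspd1, although they face the same promoter stretch, and the ratio averaged 2.28 in siCtl and 2.12 in siLarp1 at 24 h, and 1.92 and 1.43 at 48 h.

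**Figure D1:**
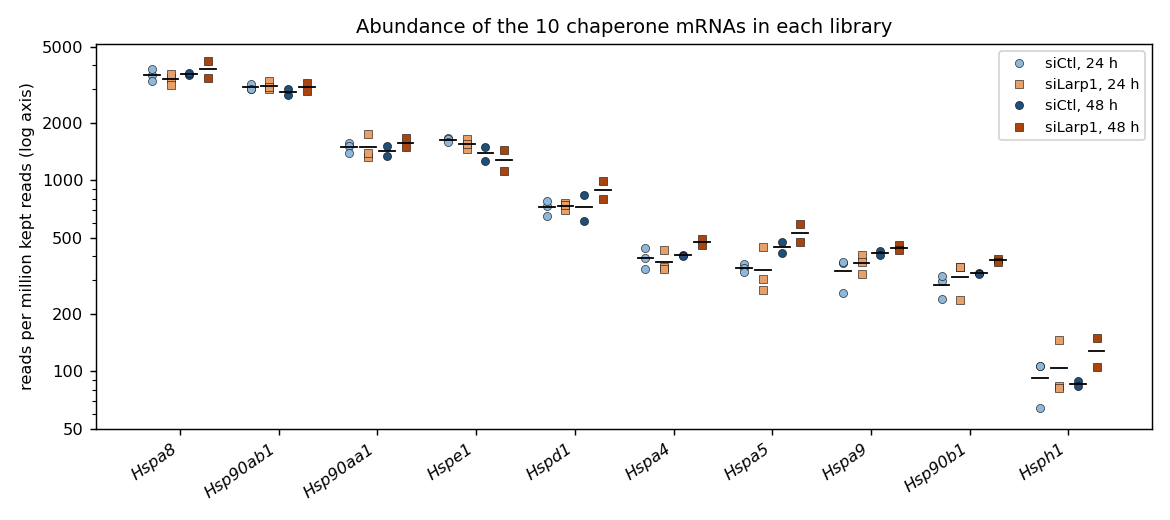
Abundance of the 10 chaperone mRNAs in RPM on a log axis, with 1 point per library and a short line at each group's mean (3 libraries per group at 24 h, 2 at 48 h). The genes are ordered by their mean over the 10 libraries, from Hspa8 at 3140 to 4202 RPM down to Hsph1 at 63.9 to 149 RPM. Some neighbours change places between groups. In siCtl at 24 h Hspe1 lies above Hsp90aa1, at 1587 to 1674 against 1384 to 1574 RPM. In siLarp1 at 48 h it lies below, at 1120 to 1438 against 1493 to 1659 RPM.

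No chaperone gene passed the test across all genes for a change in abundance with loss of Larp1. In limma, 0 of 10 members passed an adjusted p under 0.05 at 24 h, at 48 h or for the mean of both time points, where 0%, 0.0184% and 0.147% of the 5431 tested genes passed. At an unadjusted p under 0.05 the count was 0 of 10 at 24 h, 1 of 10 at 48 h and 0 of 10 for the mean, against 6.13%, 4.53% and 5.97% of all genes. These samples are bulk RNA, so fewer cells of a type and less RNA per cell cannot be told apart, and the study calls the libraries biological replicates, without saying in the sources used here whether they came from separate cultures.

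Hspa8 was read at 3552, 3312 and 3826 RPM in siCtl and at 3437, 3140 and 3591 RPM in siLarp1 at 24 h. At 48 h the values were 3567 and 3649 RPM in siCtl and 4202 and 3418 RPM in siLarp1. The groups overlapped at both times, and the log2 fold change (siLarp1 over siCtl) for the mean of both was 0.01 ± 0.06 (SE). Hsp90ab1 was at 3003, 3210 and 2995 RPM in siCtl and at 2995, 3297 and 3069 RPM in siLarp1 at 24 h, and at 2786 and 3005 against 3240 and 2953 RPM at 48 h. It varied least of the 10 genes in relative terms, with all libraries between 2786 and 3297 RPM, and its log2 fold change was 0.06 ± 0.06.

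The gene that passed unadjusted was Hspd1, and only at 48 h. It was at 843 and 616 RPM in siCtl and at 987 and 796 RPM in siLarp1 at 48 h, values that overlap, with a log2 fold change of 0.35 ± 0.17 and an adjusted p of 0.984 in limma. At 24 h it was at 735, 651 and 784 RPM in siCtl and at 759, 703 and 745 RPM in siLarp1, a log2 fold change of 0.02 ± 0.12. Leaving out each of the 10 libraries in turn moved this 48 h value of Hspd1 between 0.09 ± 0.21 (without siCtl number 25) and 0.54 ± 0.20 (without siCtl number 24), and it was 0.18 ± 0.22 without siLarp1 number 24. For Hspe1, its partner, the estimate at 48 h was -0.08 ± 0.14, and it ran from -0.28 ± 0.18 without siLarp1 number 24 to 0.08 ± 0.15 without siLarp1 number 25, so its sign rested on single libraries. Hspa4, Hspa9, Hsph1 and Hsp90b1, 4 of 10 members, lay higher in both siLarp1 libraries than in both siCtl libraries at 48 h, where 18.2% of all tested genes did. Their log2 fold changes ran from 0.10 to 0.49 with SEs from 0.21 to 0.40, and with 2 libraries against 2 the exact permutation test cannot go below p = 0.33. The value of Hspa9 was 0.10, and 0.06 without siLarp1 number 24, while that of Hsph1 was 0.49, and 0.78 without that library and 0.28 without siLarp1 number 25. Over both times the estimate was positive for 9 of 10 members and their median was 0.10, where the median over all tested genes was 0.04.

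The tails of the chaperone mRNAs differed from gene to gene, in an order that placed Hspa8 and Hsp90ab1, the most abundant genes, toward opposite ends. Hspe1 had the shortest median tail, 90.6 nt as the mean of 10 libraries, at the 7.11 percentile of tested genes, and Hspa8 had 95.5 nt, at the 15.7 percentile. Hsp90b1 had the longest, 122 nt, and Hsp90ab1 had 113 nt. The other 6 genes lay between 105 and 108 nt, where neighbours changed places between libraries, and the median over all tested genes was 108 nt. Hsp90ab1 had a longer median than Hspa8 in 10 of 10 libraries, by 4.52 to 25.9 nt, and Hspe1 had a shorter one than Hspd1 in 10 of 10.

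The shares of short tails followed the same division. Tails under 30 nt, which go with deadenylated mRNA, made up 154 of 3128 reads of Hspe1 pooled over the libraries (4.92%, Wilson 95% interval 4.22% to 5.74%) and 323 of 7332 of Hspa8 (4.41%, 3.96% to 4.90%). Hsp90ab1 had 85 of 6257 (1.36%, 1.10% to 1.68%) and its paralog Hsp90aa1 had 88 of 3042 (2.89%, 2.35% to 3.55%). Hsp90ab1 was below Hspa8 in every library and below Hsp90aa1 in 8 of 10. Tails from 30 to 90 nt, the class around 60 nt, made up 44.5% of Hspe1 reads and 42.3% of Hspa8 reads, against 30.6% for Hsp90ab1. Hsp90b1 had the largest share of long tails among the 10 genes, with 36.2% of its reads at 150 nt or more, and Hspe1 the smallest, with 17.4%. The intervals cover counting error only, and reads of Hspa5, Hspa9, Hsp90b1 and Hsph1 were few enough that a single library could hold no short tail: 0 of 32 reads of Hspa5 allows a share of up to 9.38%.

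**Figure D2:**
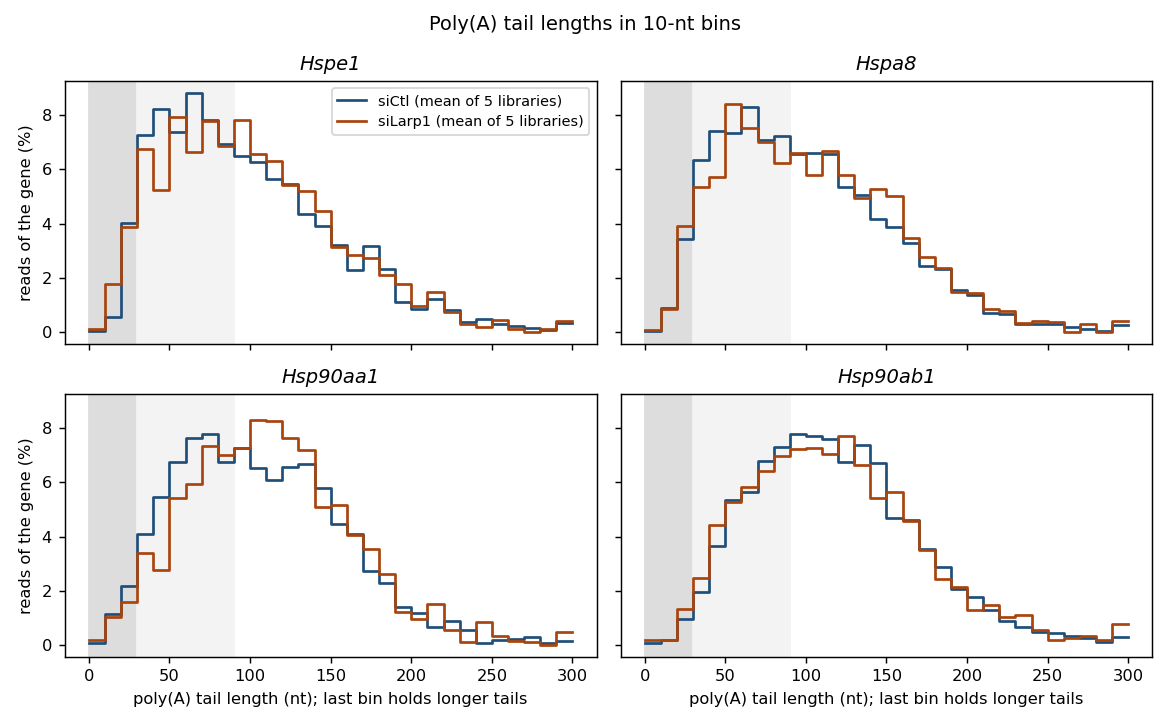
Poly(A) tail lengths of 4 chaperone mRNAs in 10-nt bins, as the mean over 5 siCtl and 5 siLarp1 libraries of the percentage of the gene's reads, with the under-30-nt class shaded dark and the 30 to 90 nt class shaded light. Hspe1 and Hspa8 peak within the 30 to 90 nt class, Hsp90ab1 peaks above it, and the siLarp1 curve of Hsp90aa1 lies under the siCtl curve from 30 to 70 nt and over it from 100 to 140 nt.

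The share of tails under 30 nt did not pass for any chaperone gene. In limma 0 of 10 passed adjusted at 24 h, 48 h and for the mean, where 0%, 0.0184% and 0.0368% of tested genes did. At an unadjusted p under 0.05 the count was 1 of 10, 0 of 10 and 1 of 10, against 4.47%, 8.56% and 6.67% of all genes, and a quasi-binomial model on the read tallies called 0 of the 9 members it could fit at 24 h, 48 h and for the mean, where it called 3.24%, 0.876% and 4.47% of 1141 genes. The gene that passed unadjusted was Hsp90ab1. At 24 h, 11 of 870, 13 of 1105 and 12 of 1268 of its reads had such tails in siCtl (1.26%, 1.18% and 0.946%), and 8 of 359, 7 of 441 and 9 of 482 in siLarp1 (2.23%, 1.59% and 1.87%). The groups did not overlap, as in 2.46% of genes with siLarp1 higher at 24 h. The difference was 0.76 ± 0.19 percentage points, with an adjusted p of 0.676 in limma. The exact permutation test gave p = 0.1, the smallest that 3 against 3 allows. Leaving out each library in turn, the estimate ran from 0.62 to 0.91 points. Over all settings in percentage points, other tail classes included, it ran from -0.23 to 0.91, so its sign depended on the setting. At 48 h the shares were 1.27% and 1.49% in siCtl and 1.71% and 1.12% in siLarp1, which overlap.

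In Hspe1 and Hspa8, the members with the most short tails, libraries of a group differed by several points. Hspe1 ranged at 24 h from 2.98% to 6.35% in siCtl and from 2.45% to 8.22% in siLarp1, and at 48 h it had 4.14% and 4.41% in siCtl against 6.01% and 8.15% in siLarp1. Those 2 siLarp1 libraries of 48 h both lay above the siCtl ones, as in 7.9% of all tested genes, with a difference of 2.50 ± 2.43 points. Hspa8 had 4.57%, 5.26% and 2.84% in siCtl and 6.31%, 4.76% and 3.90% in siLarp1 at 24 h, and 4.73% and 4.29% against 6.46% and 2.67% at 48 h, so its groups overlapped at both times. Its estimate for the mean of both was 0.70 ± 0.97 points, and it ran from -0.48 ± 1.03 without siLarp1 number 24 to 1.42 ± 0.92 without siLarp1 number 25.

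The pooled chaperone reads can be set beside those of the ribosomal protein genes in the same libraries. All tails of the 10 genes pooled had 2.89% ± 0.74 (SD, n = 3) under 30 nt in siCtl and 3.31% ± 0.56 (n = 3) in siLarp1 at 24 h, and 3.57% ± 0.33 (n = 2) against 3.81% ± 1.12 (n = 2) at 48 h. For 77 ribosomal protein genes the values were 1.79% ± 0.11 and 3.10% ± 0.14 at 24 h, and 2.52% ± 0.33 and 4.34% ± 0.22 at 48 h. All other genes had 2.46% and 2.71% at 24 h, and 3.03% and 3.58% at 48 h. The difference between the sets was not tested.

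The share of tails from 30 to 90 nt was lower in siLarp1 in the estimate for 7 of 10 chaperone genes, and none of them passed the adjusted test. In limma 0 of 10 passed at 24 h, 48 h and for the mean, against 0.11%, 0% and 0.129% of tested genes. Unadjusted, 2 of 10, 2 of 10 and 3 of 10 passed, all lower in siLarp1, against 5.52%, 5.45% and 5.73% of all genes. The median over all tested genes was itself negative, at -1.74 percentage points for the mean of both times, and the median of the 10 members was -3.47 points.

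Of the members, Hsp90aa1 had the largest difference for the mean of both times in this measure. At 24 h 36.6%, 40.1% and 37.0% of its tails fell in this class in siCtl and 29.7%, 36.6% and 29.4% in siLarp1. At 48 h the shares were 39.1% and 39.7% in siCtl against 32.6% and 31.5% in siLarp1. Every siLarp1 library lay below every siCtl library of its time, by 0.03 points between the closest pair at 24 h. It was the only member whose groups did not overlap at both times in the same direction, where 1.39% of 5125 genes with values in all libraries did so downward in this measure. The difference was -6.52 ± 2.08 points for the mean of both times, with an unadjusted p of 0.00173 and an adjusted p of 0.523 in limma, and the exact permutation test within time points gave p = 0.017, the smallest it can give, in 1 of 40 such tests over the members and measures. Leaving out each library in turn, the difference ran from -7.88 ± 2.22 to -5.72 ± 2.23 points, with adjusted p of 0.132 to 0.863 in limma.

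The other members that passed unadjusted were Hspa8 and Hspe1. Hspa8 had 44.2%, 44.8% and 40.4% of tails in the class in siCtl and 42.2%, 39.0% and 37.4% in siLarp1 at 24 h, then 41.8% and 47.7% against 41.9% and 40.5% at 48 h. The groups overlapped at both times, and the difference for the mean was -3.77 ± 1.38 points, adjusted p 0.659 in limma. It was -1.95 ± 1.71 points without siCtl number 25, which held the 47.7%. Hspe1 had 46.2%, 42.9% and 45.8% in siCtl and 42.0%, 37.4% and 47.3% in siLarp1 at 24 h, which overlap, and 47.9% and 49.3% against 44.6% and 34.8% at 48 h, which do not. At that time 18.9% of all tested genes lay lower without overlap, and 3 of 10 members did (Hsp90aa1, Hspe1 and Hspa9). The difference of Hspe1 for the mean was -5.08 ± 2.24 points, adjusted p 0.799, with -8.19 ± 2.86 points without siLarp1 number 24 and -3.28 ± 2.46 points without siLarp1 number 25. Hsp90ab1, the paralog of Hsp90aa1, had a difference of 0.16 ± 1.41 points, with 29.0%, 27.3% and 31.6% in siCtl against 29.2%, 33.1% and 28.0% in siLarp1 at 24 h.

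**Figure D3:**
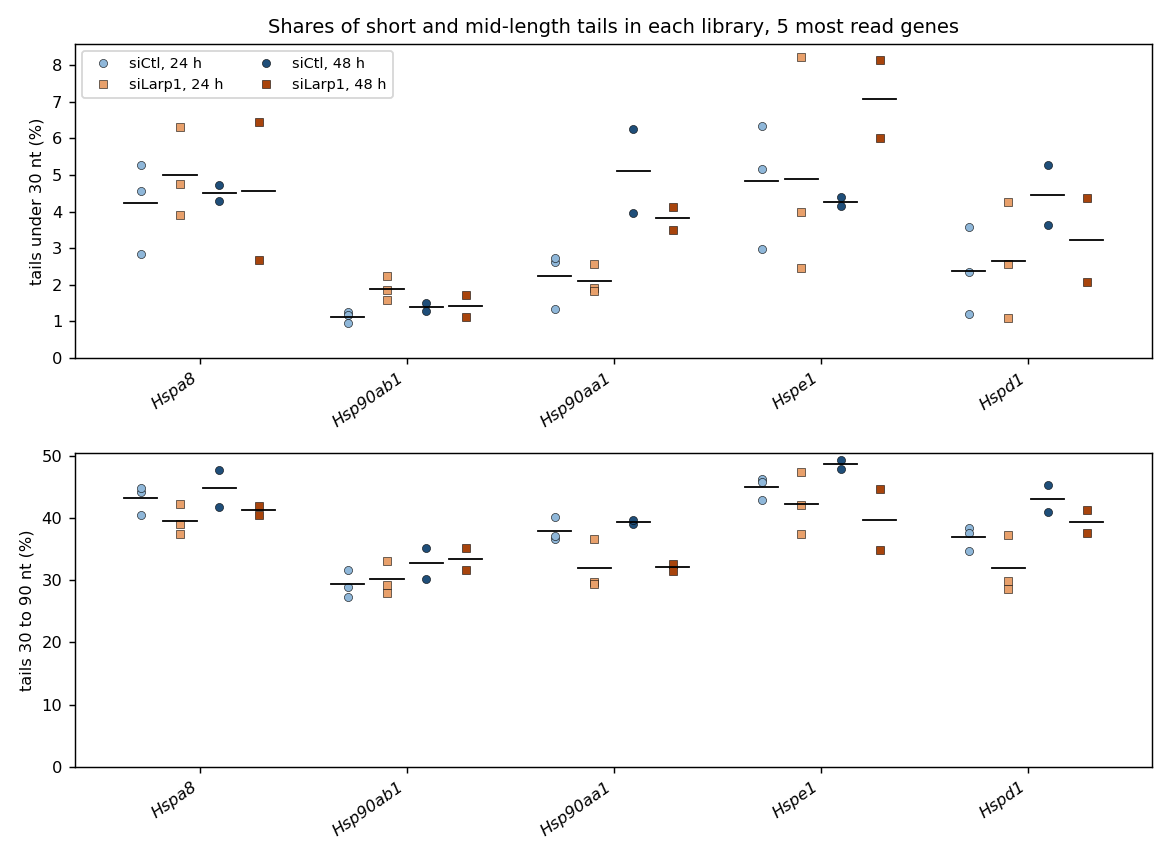
Percentage of tails under 30 nt (top) and from 30 to 90 nt (bottom) for the 5 most read chaperone genes, with 1 point per library and a line at each group's mean. In the lower panel the Hsp90aa1 points of siLarp1 lie below those of siCtl at each time, at 29.4% to 36.6% against 36.6% to 40.1%, while those of Hsp90ab1 mix.

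Median tails describe the same reads as the mid-length class. In limma 0 of 10 members passed adjusted at 24 h, 48 h and for the mean, against 0.0184%, 0% and 0.0184% of tested genes, and 0, 2 and 3 of 10 passed unadjusted, against 6.09%, 5.39% and 5.73%. The median over all genes was a lengthening of 2.44 nt. For the mean of both times the unadjusted passes were Hsp90aa1 at 7.81 ± 2.86 nt, Hspd1 at 8.53 ± 3.96 nt and Hspa8 at 4.93 ± 2.34 nt, all longer in siLarp1, with adjusted p of 0.784 to 0.823 in limma. Without siLarp1 number 24 these were 10.7 ± 3.30, 12.9 ± 4.73 and 8.71 ± 2.78 nt, and without siLarp1 number 25 they were 5.43 ± 3.15, 5.91 ± 4.20 and 2.64 ± 2.46 nt. The count of members passing unadjusted for the mean was 4 of 10 without siLarp1 number 24 and 0 of 10 without siLarp1 number 25. It was 1 of 10 without siCtl number 25, siCtl number 21 or siLarp1 number 22. The groups did not overlap at 48 h in 5 of 10 members with siLarp1 longer and in 2 of 10 with siLarp1 shorter, against 19.4% and 14.5% of all tested genes.

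Hsp90aa1 had medians of 105, 103 and 107 nt in siCtl and 113, 102 and 113 nt in siLarp1 at 24 h, and 98.8 and 97.4 nt against 105 and 115 nt at 48 h. The groups overlapped at 24 h and did not at 48 h. Hspd1 had 110, 99.7 and 106 nt in siCtl and 115, 107 and 118 nt in siLarp1 at 24 h, and 89.0 and 95.4 nt against 95.6 and 110 nt at 48 h. At 48 h its closest libraries were 0.20 nt apart. Hspa4 went the other way at 48 h, with 133 and 117 nt in siCtl against 110 and 95.6 nt in siLarp1, a change of -19.4 ± 8.56 nt with an adjusted p of 0.905, from 46 to 80 reads a library, and it ran from -28.8 ± 11.6 without siCtl number 25 to -13.4 ± 9.85 nt without siCtl number 24. At 24 h it had 106, 95.5 and 105 nt in siCtl and 98.2, 107 and 113 nt in siLarp1. Hspa5 had a shorter tail in the estimate at both times, by -6.60 ± 5.22 nt for the mean, from -12.5 ± 6.48 without siCtl number 25 to -3.32 ± 5.57 nt without siCtl number 24.

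Across the 8 measure and direction pairs, groups that did not overlap at either time were looked for in every gene. They were higher in siLarp1 for 1.07% of genes in abundance, 1.03% in tails under 30 nt, 0.488% in tails from 30 to 90 nt and 1.35% in median tail, and lower for 1.23% in abundance, 0.156% in tails under 30 nt and 0.702% in median tail. In these 7 there were 0 of 10 members. At 24 h alone the groups did not overlap for 4.97% of genes in abundance with siLarp1 higher and 6.08% with siLarp1 lower, and for 0 members in either direction. In tails from 30 to 90 nt at 24 h these shares were 4.33% and 7.2%, with 0 members higher and 1, Hsp90aa1, lower, and in median tail they were 6.54% and 5.09%, with 0 members. In tails under 30 nt siLarp1 was lower without overlap for 2.95% of genes at 24 h and 4.23% at 48 h, again with 0 members. At 48 h 0 members were lower in abundance or higher in tails from 30 to 90 nt, against 15.4% and 11.5% of genes. In tails under 30 nt 2 members, Hspe1 and Hspa5, were higher at 48 h, against 7.9% of genes. For Hspa5 this rests on 1 of 47 and 4 of 85 reads in siCtl and 5 of 96 and 3 of 57 in siLarp1.

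**Figure D4:**
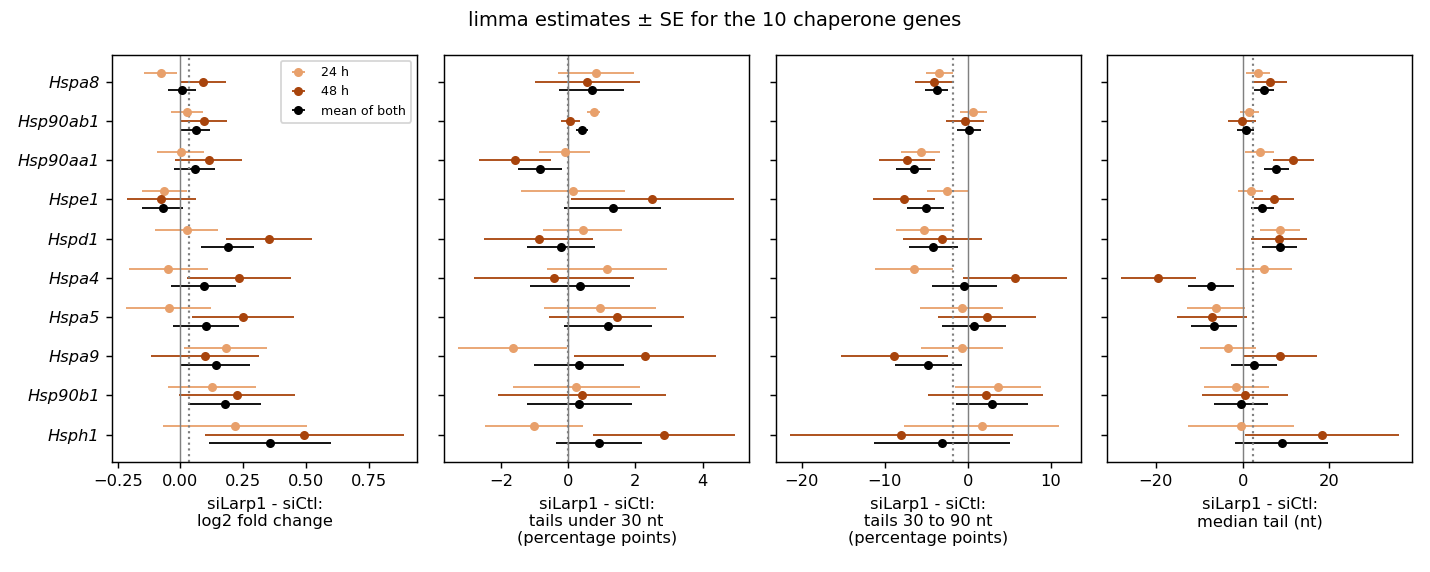
Difference between siLarp1 and siCtl for the 10 chaperone genes in abundance (log2 fold change), tails under 30 nt and from 30 to 90 nt (percentage points) and median tail (nt), as limma estimates with bars of 1 SE at 24 h, at 48 h and for the mean of both. The solid line marks 0 and the dotted line the median over all tested genes for the mean of both. Hsp90aa1, Hspa8, Hspe1, Hspd1 and Hspa9 lie below 0 for tails from 30 to 90 nt at 24 h, at 48 h and for the mean. The bars widen toward Hsph1, which has 202 reads in all.

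Use of the cleavage sites was compared in the 5 genes with 2 sites, in order along the transcript. In Hspe1 the nearer site, 117 nt past the stop codon, took 1600 of 3128 reads and the farther, at 187 nt, took 1504. In each library 46.7% to 55.6% of the reads at these sites ended at the nearer. In Hspd1 the farther site, at 453 nt, took 1239 reads and the nearer, at 240 nt, 270. Hspa4 had the sites farthest apart, at 38 and 1798 nt past the stop codon, with 630 and 149 reads, and the farther took from 9.35% to 34.6% of site reads between libraries. In Hspa5 the sites at 343 and 418 nt took 681 and 88 reads, and in Hspa9 those at 198 and 683 nt took 69 and 617. Hspa8, Hsp90ab1, Hsp90aa1, Hsp90b1 and Hsph1 each had a single site holding 95.5% to 99.3% of their reads.

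Loss of Larp1 was not seen to move these shares. The exact permutation test within time points gave p from 0.2 to 0.95 over Hspa4, Hspa5, Hspa9, Hspe1 and 0.917 for Hspd1. Hspd1 used the nearer site for 19.1% ± 0.49 (SD, n = 3) of site reads in siCtl and 16.1% ± 0.65 (n = 3) in siLarp1 at 24 h (exact permutation p = 0.1, the smallest possible), but 14.6% ± 4.25 (n = 2) and 18.1% ± 3.46 (n = 2) at 48 h, the opposite order.

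Tails at the sites were compared in the same 5 genes, and none passed the adjusted test in the comparison as first set. For Hspa4, in the 10 libraries the median tail averaged 101 nt at the nearer site and 121 nt at the farther one, longer at the farther site in 9 of 10 libraries by a mean of 20.0 nt ± 20.7 (SD). An exact sign-flip permutation test over libraries gave p = 0.0117, and 0.0586 after Benjamini-Hochberg adjustment over the 5 genes compared. With a window of 15 nt in place of 25, a setting chosen after the data were seen, the difference was 24.0 nt, longer in 10 of 10 libraries, with an adjusted permutation p of 0.00977. Over the 6 libraries with at least 10 reads at each site it was 12.7 nt, with an adjusted exact permutation p of 0.0938. The farther site had from 6 to 28 reads a library. In Hspe1 the medians were 91.0 and 89.8 nt, a difference of -1.22 nt ± 7.17 with an exact permutation p of 0.600, and Hspd1 had 1.61 nt ± 20.7. Hspa5 had -6.31 nt ± 25.6 and Hspa9 12.8 nt ± 26.0, each over 9 libraries with at least 5 reads at both sites.

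**Figure D5:**
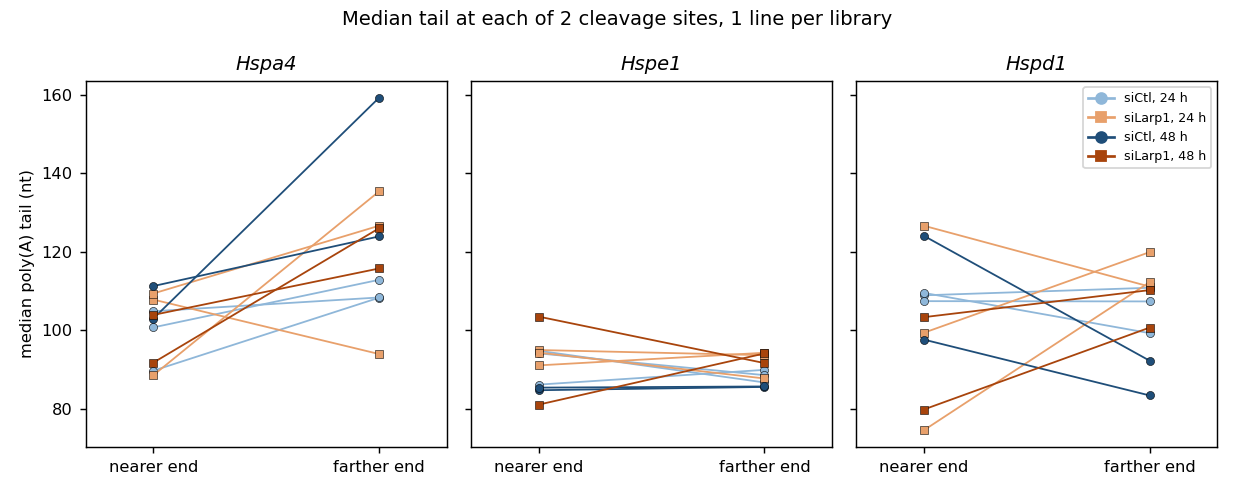
Median poly(A) tail in nt at the nearer and the farther cleavage site of Hspa4, Hspe1 and Hspd1, with 1 line per library coloured by group. In Hspa4 9 of 10 lines rise, in Hspe1 and Hspd1 5 of 10 do.

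Between 24 and 48 h the siCtl libraries, which also differ in pool and in number of transfections, gave 0 of 10 members past the adjusted limma test in any of the 4 measures, where 0.7% of genes passed in abundance, 0% in tails under 30 nt, 0.276% in tails from 30 to 90 nt and 0.0737% in median tail. Unadjusted, 3, 1, 1 and 3 of 10 members passed, against 11.5%, 6.96%, 6.94% and 7.6% of all genes. Tails under 30 nt of Hsp90aa1 made up 2.63%, 1.34% and 2.73% at 24 h and 3.97% and 6.25% at 48 h in siCtl. The difference was 3.20 ± 0.86 points (48 h minus 24 h), with an adjusted p of 0.350 in limma. The median tail of Hspa4 was 21.8 ± 7.09 nt longer at 48 h in the estimate, with an adjusted p of 0.317, while those of the other 9 members were shorter and the median over all genes was -4.24 nt. In abundance Hspa5 was 0.39 ± 0.18 and Hspa9 0.37 ± 0.18 higher and Hspe1 0.26 ± 0.11 lower on the log2 scale, none past the adjusted test.

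Partners of the chaperones were read in the same way. For co-chaperones of HSP70 and HSP90, 25 of 27 genes were tested and 0 passed in limma in either direction in abundance or tails for the mean of both times, with a median log2 fold change of 0.09. In tails under 30 nt the estimate was higher in siLarp1 for 18 of the 25 and lower for 6, with a median of 1.42 points against 0 over all genes. Most tested genes had few reads (median 47.3 RPM), so a median of 0 does not mean that their short tails stayed level. All other genes pooled held 2.46% in siCtl and 2.71% in siLarp1 at 24 h, and 3.03% and 3.58% at 48 h. The difference between the co-chaperones and all genes was not tested. The co-chaperones had a median of 0.17 points in tails from 30 to 90 nt, against -1.74 over all genes. In median tail it was -2.46 nt, against 2.44. Fkbp4, a peptidyl-prolyl isomerase of HSP90 complexes, was the most read at a median of 865 RPM, with a log2 fold change of -0.01 ± 0.10. Ahsa1, which stimulates the HSP90 ATPase, had 393 RPM and 0.24 ± 0.14, and Dnaja1, a J-domain partner of HSP70, had 396 RPM and 0.09 ± 0.14.

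Of 12 heat-inducible and HSF genes, 5 had enough reads to be tested and 0 passed. The small heat shock protein gene Hspb1 had a median of 134 RPM and a log2 fold change of 0.03 ± 0.20, Hspa14 had 108 RPM and -0.12 ± 0.22, and Hmox1, the heme oxygenase, had 69.9 RPM and -0.09 ± 0.30. Of 24 names of endoplasmic reticulum chaperones and unfolded protein response genes, 20 were tested and 0 passed, with a median of 0.02. Calr, a lectin chaperone, had 420 RPM and 0.11 ± 0.13, P4hb, a disulfide isomerase, had 398 RPM and -0.06 ± 0.13, and Atf4, a stress transcription factor, had 344 RPM and 0.22 ± 0.14. Of 13 mitochondrial chaperones and proteases 12 were tested and 0 passed, with a median of -0.17, against 0.04 over all genes. Tomm20, an import receptor, had 939 RPM and 0.00 ± 0.09, Grpel1, the exchange factor of Hspa9, had 219 RPM and -0.17 ± 0.17, and Clpp, a matrix protease, had 179 RPM and -0.13 ± 0.20. In tails under 30 nt for the mean of both times, these lists did not all go as the co-chaperones did. The estimate was higher for 7 and lower for 10 endoplasmic reticulum genes, with a median of -0.30 points. It was higher for 3 and lower for 8 mitochondrial genes, with a median of -0.44 points. Of the 5 heat-inducible and HSF genes, 4 were higher and 1 lower, with a median of 1.37 points.

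The 10 libraries differ in pool and in depth. Over them, the genes whose log2 RPM went most closely with Hspa8 among 1385 others of at least 100 RPM were Psip1 (Pearson's r 0.92), Tbrg1 (0.88), Emc6 (0.87), Lamp1 (0.86) and Srsf11 (0.85). For Hspa5 they were Ddb1, Lonp1, Lap3, Xpnpep1 and Sf3b1, with r from 0.86 to 0.88. For Hspd1 they were Ociad1, Mat2a, Bub3, Polr2d and the co-chaperone gene Ahsa1, with r from 0.80 to 0.82. No other chaperone member was among these 15 genes.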

How the data were processed

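Poly(A) RNA of 10 P19 libraries was sequenced by the authors with the Nanopore direct RNA kit and aligned to the mouse transcriptome (mm10) with minimap2 2.20, and tails were measured with Nanopolish. The authors deposited 1 table of alignments with tail length in nt, a mapping quality score, alignment start and end positions, and a barcode confidence fraction; no count per gene is used as deposited. Library names in the table gave the group but not which labelled replicate a library is. Alignments to messenger RNA with the PASS tag were kept, and mitochondrially encoded and pseudogene transcripts were left out. Between 0.112% and 1.04% of a member's reads aligned to several sequences.

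Read tallies (limma voom, scaled to kept reads), shares of tails under 30 nt and from 30 to 90 nt, and median tails (limma with weights from read number) were computed with limma 3.58.1 in R 4.3.3 over all 10 libraries and 4 groups, on 5431 genes with at least 30 reads over all libraries that were seen in 2 or more libraries of every group, with Benjamini-Hochberg adjustment at 0.05. Estimates weight libraries by reads, so they can differ from plain differences of means. Single genes were also tested by exact permutation, two-sided, with smallest p of 0.1 (24 h), 0.33 (48 h) and 0.017 (within both). The steps were tested on simulated data. Members and gene lists were chosen with earlier results of these data known. The 10 members, the 3 most read genes of each list of chaperone partners and any called gene of those lists were named. The ribosomal protein genes served as a pooled comparator, and single genes of that set were not named. Cleavage sites were compared after the data were seen. Alternatives were the leading transcript, alignments, quality tags, barcode confidence, depth, read filters, scalings, tail classes, models, the replicate block and leaving out each library. A listed marker gene is not reported here.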

Additional observations from a re-analysis of the deposited data

How the results depend on the processing

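Under each of the 27 other settings that applied to a measure, the count of chaperone genes past the adjusted test stayed at 0 in each measure at 24 h, at 48 h and for the mean of both, leaving out each library included (0 to 0). The lowest adjusted p of any member was 0.0656, for tails from 30 to 90 nt of Hsp90aa1 with all quality tags. Of 2417 estimates of single members under these settings, 215 changed sign and 77 moved. A move was a shift of more than 1 SD between replicates, or a change of sign in settings on another scale. Those settings were log2 odds, the quasi-binomial model and the mean of log2 tail length. Leaving out a library of 1 time point could hardly move an estimate at the other, and such fits are in these totals. Of the 647 in tails under 30 nt, 94 changed sign and 43 moved. With the library number as a replicate block the count of members was again 0, and the count of all genes called for the mean of both rose from 8 to 25 in abundance. Same-numbered libraries correlated at 0.02, 0.11 and 0.11 (24 h) and 0.04 (48 h) in their deviations from the group means, so the numbers were not taken as pairs, though each 24 h library correlated best with its own number. For tails under 30 nt the count of all genes called for the mean was 2, but 51 of 1141 in the quasi-binomial model and from 2 to 199 when a library was left out, so the shares of genes called are unstable in that measure. The Hspa4 difference between cleavage sites passed only with a window of 15 nt (24.0 nt, against 20.0 nt), and was 12.7 nt over the 6 libraries with at least 10 reads at each site. Depth limits the rarer genes: Hsph1 had from 10 to 45 reads a library, and the Wilson 95% interval of its share of tails from 30 to 90 nt was up to 51.9 points wide in a library, against at most 9.60 points for Hspa8.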
